A study of Mus musculus with 23 samples.

Results

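Among the 150 bp windows of the mouse genome whose DNA methylation was measured in the prefrontal cortex, 3527 held an ordinary amount of captured DNA in C57BL/6J (B6) controls and next to none in DBA/2J (D2) controls. They are the autosomal windows with a mean of at least 3.5 log2 RPKM in B6 controls and under 1.0 in D2 controls, which at the mean library size are about 21 and 2.1 reads per mouse. They make up 1.8% of the 195677 autosomal windows, out of 210191 windows in all. Control mice of both strains chose these D2-depleted windows, so the control levels are a description of the rule and carry no test. The CORT+DFP mice, which the rule did not use, are the check. With the strains exchanged, the same rule found 64 windows.

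The assay was MBD-seq, in which sheared genomic DNA is captured by the methyl-CpG binding protein MBD2 and the captured fragments are sequenced. The 23 mice, 11 females and 12 males, were 5 B6 controls, 6 B6 CORT+DFP, 6 D2 controls and 6 D2 CORT+DFP mice. CORT+DFP mice drank corticosterone (20 mg%) for 7 days, were injected once with DFP (diisopropyl fluorophosphate, a sarin surrogate) at 4 mg per kg, and were then given corticosterone every other week. The control mice drank plain water throughout and were injected with saline in place of DFP. The B6 controls were all 145 days old and of 1 set of mice (the first part of the sample name), the B6 CORT+DFP mice were 145 to 226 days old and of 2 sets, and the D2 mice of both treatments were 147 to 196 days old and of 2 sets. Sets 2 and 3 held mice of 1 strain each. Summed over the windows, a mouse had 9776537 to 18428398 reads, where a fragment that spans touching windows can be counted more than once.

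A window mainly collects reads in this assay if its DNA is in the genome, aligns to the reference, and has methylated CpGs. By the study's methods the capture prefers methylated CpGs, and reads from a near-identical copy can also align to a window. A few reads in D2 therefore do not show that the window's own DNA was present and methylated. The reference, GRCm38, was assembled from B6 mice, so a stretch that B6 carries and D2 lacks is still listed, while a stretch that only D2 carries is not. Inbred strains differ in many such stretches. Common kinds are processed pseudogenes, which are copies of spliced messenger RNAs pasted into the genome by retrotransposon enzymes, mobile elements themselves, and tandem gene families whose copy number varies. Whether the D2 DNA was missing, too different to align or unmethylated cannot be told apart with these values.

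Sequences of 7 windows are shown as examples of the D2-depleted windows in pseudogenes and in coding sequence, which hold 8.82% and 0.454% of them. No whole genome of this build was at hand, so they were read from transcripts of the GENCODE M21 annotation, which covered 199 of the 3527 windows in full. They are GRCm38 sequence of the + strand, 5′ to 3′, with every CG, the methylated dinucleotide, in capitals. The first 4 lie in processed pseudogenes. Gm48636 (chr12:19704301-19704450) and Gm8587 (chr12:88089601-88089750) lie in 2 of the 10 runs with the most D2-depleted windows. In Gm12892 (chr4:122008501-122008650) and Gm5182 (chr12:10157701-10157850) every measured window was D2-depleted. The other 3 lie wholly in coding sequence, which was rare among the D2-depleted windows: Gm14403 (chr2:177508801-177508950), Gm9046 (chr10:118343101-118343250) and Gm9048 (chr10:118348501-118348650).

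Gm48636: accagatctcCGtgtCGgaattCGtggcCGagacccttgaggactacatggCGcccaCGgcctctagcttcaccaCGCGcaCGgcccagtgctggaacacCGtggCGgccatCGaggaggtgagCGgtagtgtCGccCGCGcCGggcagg
Gm8587: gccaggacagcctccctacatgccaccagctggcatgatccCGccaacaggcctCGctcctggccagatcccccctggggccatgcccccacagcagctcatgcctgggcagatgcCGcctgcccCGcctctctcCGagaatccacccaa
Gm12892: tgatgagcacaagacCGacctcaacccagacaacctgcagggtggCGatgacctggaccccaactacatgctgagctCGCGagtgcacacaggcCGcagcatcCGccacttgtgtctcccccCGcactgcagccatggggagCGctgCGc
Gm5182: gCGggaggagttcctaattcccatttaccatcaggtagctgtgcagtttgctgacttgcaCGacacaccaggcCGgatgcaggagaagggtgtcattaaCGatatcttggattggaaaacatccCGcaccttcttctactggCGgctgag
Gm14403: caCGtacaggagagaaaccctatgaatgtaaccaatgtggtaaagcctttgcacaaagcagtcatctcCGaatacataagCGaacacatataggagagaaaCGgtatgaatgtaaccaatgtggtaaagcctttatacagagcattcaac
Gm9046: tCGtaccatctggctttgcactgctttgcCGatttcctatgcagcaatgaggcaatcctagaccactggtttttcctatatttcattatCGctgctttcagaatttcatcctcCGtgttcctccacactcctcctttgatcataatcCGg
Gm9048: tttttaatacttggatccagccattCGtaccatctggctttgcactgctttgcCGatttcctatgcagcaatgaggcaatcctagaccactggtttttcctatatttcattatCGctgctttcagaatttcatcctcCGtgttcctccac

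The Gm48636 window holds 17 CpGs and the Gm8587 window 5. Both had 0 reads in all 6 D2 CORT+DFP mice, beside group means of 5.02 and 4.70 log2 RPKM in B6 CORT+DFP mice. The Gm9046 and Gm9048 windows share an unbroken run of 126 identical bases. Reads from such near-identical copies can be split between them, so the level of each copy alone is uncertain. Over all 27682 autosomal windows with a sequence, the CpG number listed with the data equalled the count in the sequence for 95.8% and was within 1 of it for 100%, which checks that the windows are of this build.

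The separation of the strains held in the CORT+DFP mice. The median D2-depleted window lay between 4.44 and 4.65 log2 RPKM in each of the 6 B6 CORT+DFP mice. In 5 of the 6 D2 CORT+DFP mice it lay at -0.03, which is the value of 0 reads, and in the sixth, the mouse with the most reads, at 0.38. Every D2-depleted window had reads in every B6 mouse, while 49.4% to 57% of them had 0 reads in a given D2 CORT+DFP mouse. These windows took 1.17% to 1.24% of the reads of a B6 CORT+DFP mouse and 0.0234% to 0.0276% of those of a D2 CORT+DFP mouse.

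**Figure D1:**
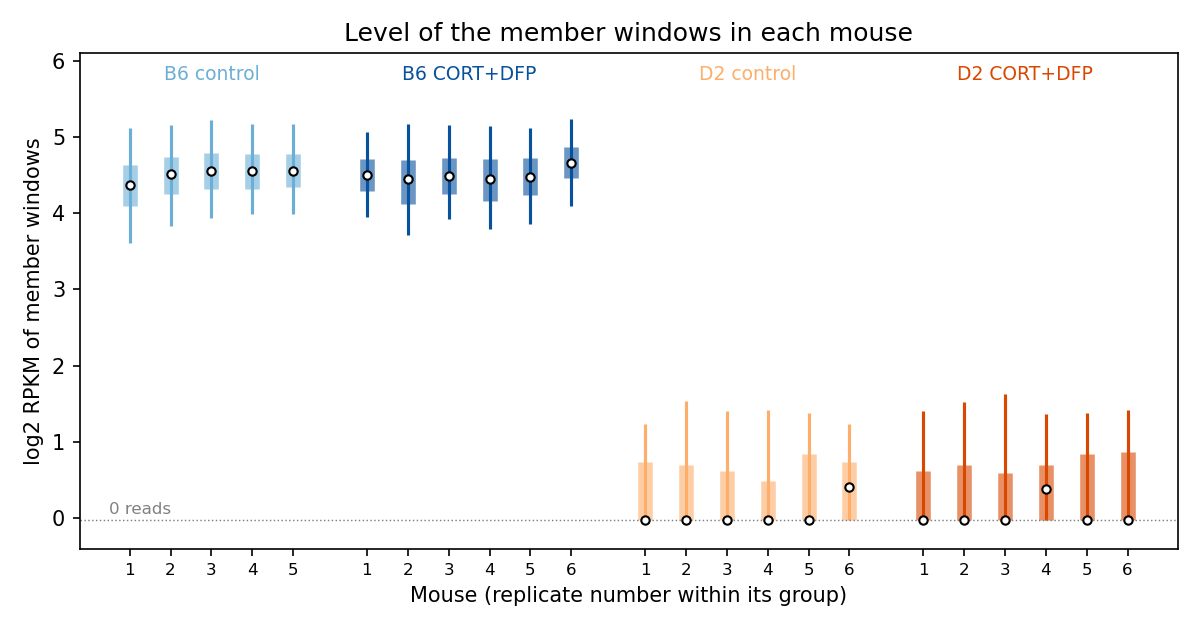
Level of the 3527 D2-depleted windows (log2 RPKM, vertical axis) in each of the 23 mice, grouped by strain and treatment. Circles are medians, thick bars the 25th to 75th and thin bars the 5th to 95th percentiles over windows, and the dotted line is the value of 0 reads. The medians of the 11 B6 mice lie between 4.37 and 4.65, and those of the 12 D2 mice between -0.03 and 0.40.

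Window by window, the 6 B6 and 6 D2 CORT+DFP mice did not overlap at any of the 3527 D2-depleted windows, with B6 higher. The same non-overlap was seen at 12.6% of all autosomal windows. In a regression on strain, sex and age over all windows (limma, Benjamini-Hochberg adjustment), all 3527 were lower in D2 at an adjusted p under 0.05, against 16.2% of autosomal windows lower and 9.8% higher. A difference of at least 2 log2 units was called at 3526 of them, against 4.74% of autosomal windows. Their adjusted p-values in limma ran from 8.44e-17 to 1.84e-06. The spread behind these p-values also drew on D2 mice at or near the floor of 0 reads, where values can hardly vary. Their size is therefore not a measure of certainty. In the mice of set 1, the set with CORT+DFP mice of both strains, all 3527 were again lower in D2, against 13.3% of autosomal windows. That fit held only 3 B6 mice of 218 to 226 days and 2 D2 mice of 196 days, with sex and no age term.

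The median difference between group means was -4.13 log2 units, and single windows ranged from -8.12 to -1.70. Over all autosomal windows the median was 0.02. These log2 differences are flattened by the prior reads added before the logarithm. From the recovered reads, with the D2 sum set to at least 3 reads, the median window was 70.3-fold lower in D2 CORT+DFP mice. The 697 windows with 0 reads in all 6 D2 CORT+DFP mice were lower by at least 94-fold at the median, with bounds from 49.8 to 252. The 1844 windows with more than 3 D2 reads were 32-fold lower at the median.

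**Figure D2:**
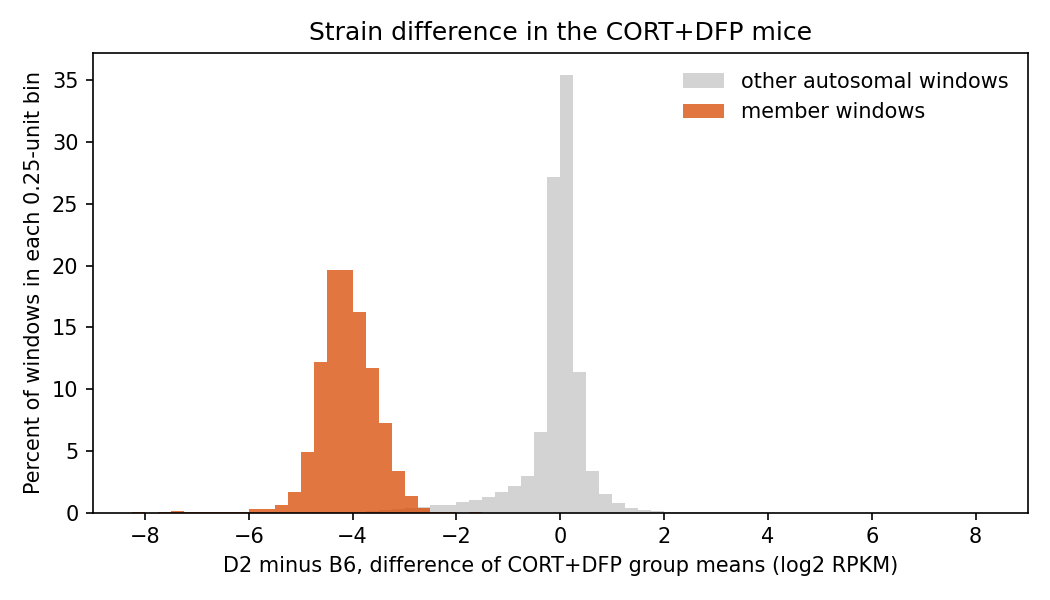
Difference between the group means of D2 and B6 CORT+DFP mice (log2 RPKM, horizontal axis) against the percent of windows in each bin of 0.25 units, for the 3527 D2-depleted windows and for the other autosomal windows. The D2-depleted windows range from -8.12 to -1.70 and their median is -4.13, while the median of all autosomal windows is 0.02.

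The thresholds themselves were met again by most of these windows. In CORT+DFP mice 3173 of the 3527 (90%) had both a B6 mean of at least 3.5 and a D2 mean under 1.0. Of the rest, all but 1 had a B6 mean of 3.5 or more, so the D2 side was where these windows crossed. Over all autosomal windows 3493 (1.79%) met both thresholds in CORT+DFP mice, so some windows outside the D2-depleted set met them too. The summed reads over 6 D2 CORT+DFP mice had a median of 4 and a highest value of 47. A total of 442 windows (12.5%) had 0 reads in all 12 D2 mice, and 1328 (37.7%) had at most 1 read in each of them. At the D2 threshold, the 3 windows just inside had D2 control means of 0.999 to 1.000 and D2 CORT+DFP means of 1.242 to 1.839, and the 3 just outside had 1.000 to 1.001 and 0.849 to 0.947, so in CORT+DFP mice the windows inside were the higher ones. At the B6 threshold, where few windows lay, the 3 just outside had B6 control means of 3.398 to 3.462 and B6 CORT+DFP means of 3.752 to 4.056, and the 3 just inside 3.527 to 3.592 and 3.902 to 4.159.

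In B6 the D2-depleted windows had levels near those of the other measured windows. Their median level in B6 CORT+DFP mice was 4.47, against 4.44 over all autosomal windows, and their median SD among those 6 mice was 0.25, against 0.24. Counting error alone gives an SD of 0.23 at their median depth of 39.5 reads. The number of CpGs per window had a median of 6 in both sets and a mean of 6.67 against 6.18. Levels rose with CpG number less steeply than elsewhere, from 4.42 at 1 to 3 CpGs to 4.61 at 10 or more CpGs, where all autosomal windows went from 4.25 to 4.77. This slope is a description, since the B6 threshold took part in the choice.

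D2-depleted windows came in runs. Joined wherever neighbours lay within 10 kb, they formed 1434 runs, of which 692 were single windows. The other runs held 2835 windows (80.4%), and 35 runs of 10 or more held 568 (16.1%). Directly adjacent to another D2-depleted window were 2405 (68.2%). The same shares were not counted for all autosomal windows, which also lie next to one another, so the clustering is a description without a background. By the study's methods reads were extended to 150 bp before counting, so touching windows can share fragments. Read totals over runs, blocks and genes can therefore count a fragment more than once, in both strains. The D2 level fell with the number of D2-depleted windows in the run. Single windows had a median of 0.51 log2 RPKM in D2 CORT+DFP mice and 9.83% of them had 0 reads in all 6, while windows in runs of 10 or more had a median of 0.08 and 36.1% had 0 reads in all 6. The medians of B6 CORT+DFP mice went the other way, from 4.34 to 4.65.

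Windows around them that the rule did not take were often lower in D2 too, and less so with distance. Of the 1067 other autosomal windows that touched a D2-depleted window, 99.3% were lower in D2 CORT+DFP mice at an adjusted p under 0.05 (limma), with a median difference of -2.86. At 150 to 900 bp the share was 80.3% and the median -1.51, and up to 10 kb they were 55.2% and -0.57. Between 10 and 100 kb 33.7% were lower and 10.2% higher. Beyond 100 kb the directions were even, with 10.4% lower and 10.1% higher and a median of 0.04. Inside the runs, 1396 of the 1703 windows that lay between D2-depleted windows without meeting the rule were lower in D2 (82%) and 69 were higher.

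**Figure D3:**
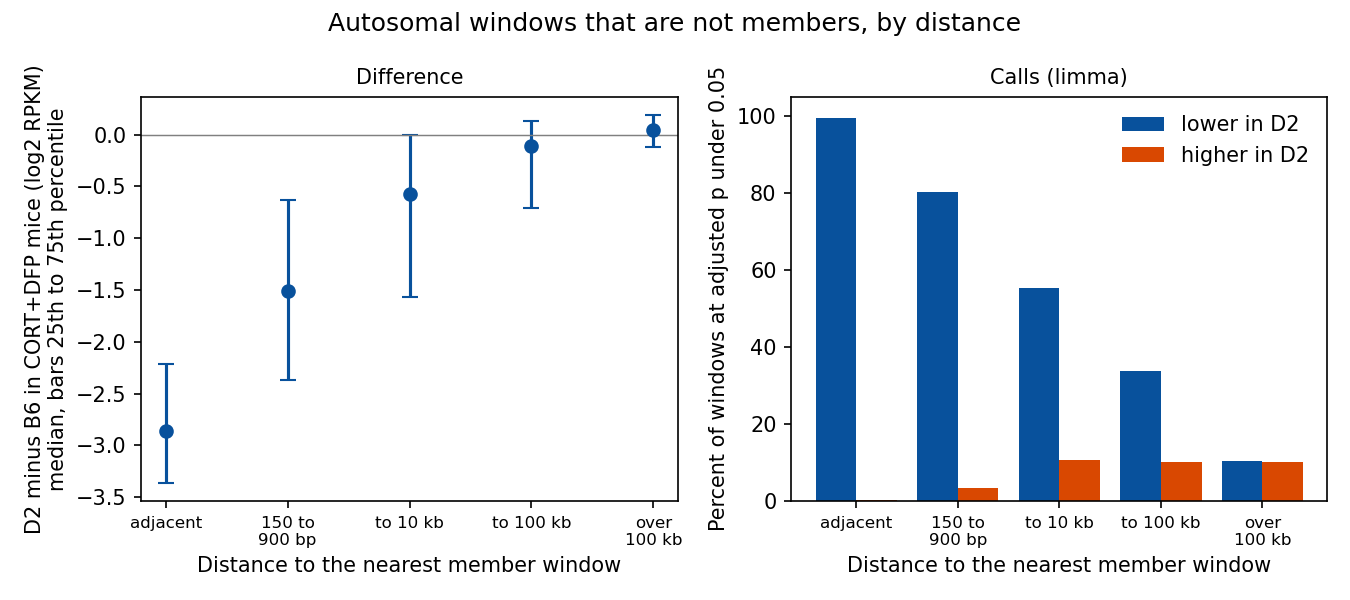
Autosomal windows outside the D2-depleted set, by distance to the nearest D2-depleted window (horizontal axis). The left panel gives the median difference of D2 and B6 CORT+DFP means in log2 RPKM with bars from the 25th to the 75th percentile, and the right panel the percent of windows called lower or higher in D2 by limma. The median goes from -2.86 for touching windows to 0.04 beyond 100 kb, and the share lower in D2 from 99.3% to 10.4%.

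The runs with the most D2-depleted windows lay mostly outside protein-coding genes. The first 2, of 36 windows each, were at chr1:171481351-171490950, 12527 bp from Alyref2, a gene for an adaptor of messenger RNA export, and at chr7:22285051-22321350, 7443 bp from Gm4187. The chromosome 1 run took 10150 reads in the 6 B6 CORT+DFP mice and 138 in the 6 D2 CORT+DFP mice, and all 11 other windows inside it were lower in D2. In its window with the highest B6 level (chr1:171484801-171484950) the 6 B6 CORT+DFP mice had 47 to 69 reads, while 2 of the D2 CORT+DFP mice had 1 read each and 4 had none. The ratio was 201, with a 95% counting interval of 55.1 to 1664, which covers counting error only.

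In 2 of the long runs nearly every window was at or next to 0 reads in D2. At chr4:122020801-122046600 all 25 measured windows were D2-depleted, 18 of them had 0 reads in all 6 D2 CORT+DFP mice, and the run took 7752 reads in B6 and 8 in D2 CORT+DFP mice. Its window chr4:122023051-122023200 had 83 to 131 reads in the B6 CORT+DFP mice, 73, 152, 117, 159 and 100 in the B6 controls, and 0 in all 12 D2 mice, so with the D2 sum at the floor of 3 reads it was at least 252-fold lower in D2 CORT+DFP mice (the exact 95% counting limit is 205). The nearest protein-coding gene, Gm12887, was 398697 bp away. At chr12:88089601-88100100, which begins in the Gm8587 pseudogene printed above, 28 of 29 windows were D2-depleted and the run took 7121 against 8 reads. The 1 other window in that run had a D2 CORT+DFP level of 3.21.

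The run at chr10:3109351-3117150 stood out by its level. Its 22 windows had a median of 7.23 log2 RPKM in B6 CORT+DFP mice and only 2 CpGs at the median, and it held the 10 D2-depleted windows with the highest B6 levels. It took 41341 reads in B6 and 159 in D2 CORT+DFP mice, and none of its windows was at 0 reads in all 6 D2 CORT+DFP mice. The highest window, chr10:3110101-3110250, had levels of 8.32 to 10.01 in B6 CORT+DFP mice and 0.38 to 1.85 in D2 CORT+DFP mice. Its reads, 633 to 1443 against 1 to 5, gave a ratio of 513 (95% counting interval 311 to 917). The SD among the 6 B6 CORT+DFP mice in that window was 0.57, against a median of 0.25 over the D2-depleted windows. The nearest protein-coding gene was H60c, which encodes a ligand of the NKG2D receptor of natural killer cells, at 139057 bp.

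**Figure D4:**
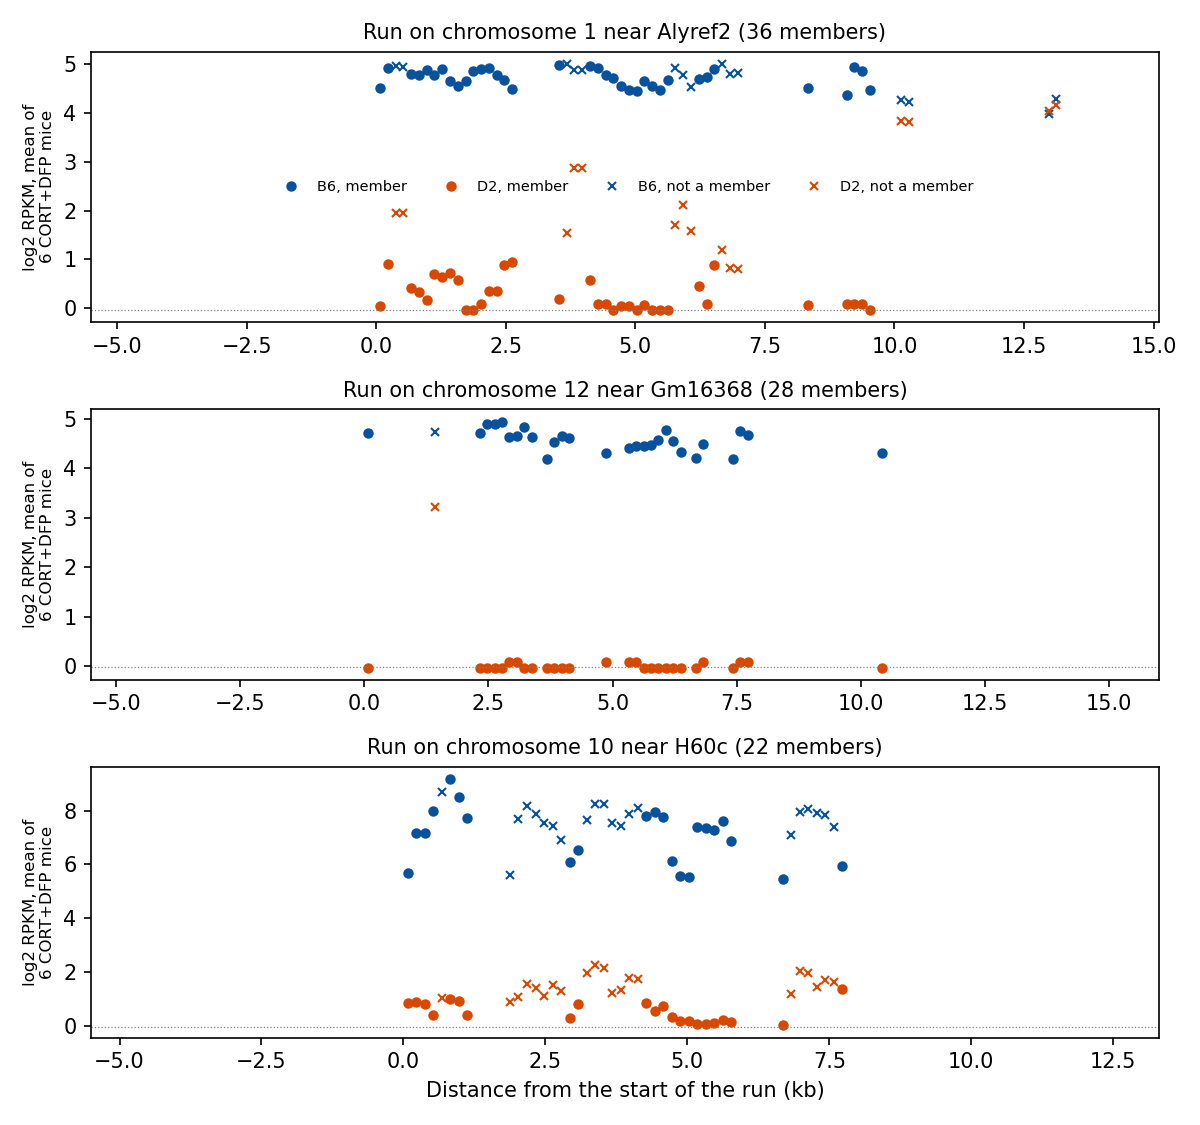
Mean log2 RPKM of the 6 B6 and the 6 D2 CORT+DFP mice (vertical axis) in the windows of 3 runs, by distance in kb from the start of the run, with 5 kb on each side. Circles are D2-depleted windows, crosses other measured windows, and the dotted line the value of 0 reads. Beside the chromosome 1 run, the 4 flanking windows had medians of 4.23 in B6 and 3.94 in D2, and no window was measured within 5 kb of the other 2 runs.

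The other runs among the 10 with the most windows showed the same contrast. The chromosome 7 runs at chr7:20291701-20325600 (33 windows) and chr7:20970151-20995500 (26 windows) lay near Gm4133 and Vmn1r119, a vomeronasal receptor gene, and took 123 and 96 reads in D2 CORT+DFP mice against 10738 and 7123 in B6. The run at chr12:19703701-19718850, 25 windows with the Gm48636 sequence printed above, took 35 against 6848. The run at chr5:23700451-23709000 held 22 windows, all inside the noncoding transcript AI506816, and took 48 against 6184. The tenth, chr5:93597001-93610800 near C87414, held 20 windows and took 136 against 5265. In all 10 of these runs the D2 total was far under the B6 total.

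Chromosomes took unequal shares. Chromosome 7 held 689 D2-depleted windows (19.5% of them), chromosome 12 held 489, chromosome 4 held 348 and chromosome 14 held 303. As a share of the windows measured there, these were 4.91%, 5.4%, 2.36% and 3.66%, and chromosome 18 had the lowest share, 0.516%. The 10 megabases with the most held 763 of them (21.6%), out of 2411 megabase bins with a window, and 700 bins had at least 1. The 3 bins with the most were on chromosome 7 from 22 to 23 Mb, where 159 of 339 windows were D2-depleted, on chromosome 7 from 20 to 21 Mb, where 120 of 300 were, and on chromosome 12 from 19 to 20 Mb, where 100 of 295 were. On the X chromosome, left out of the rule, 69 of 14416 windows met the same thresholds (0.479%). All 69 were lower in D2 CORT+DFP mice (limma, adjusted p under 0.05). The share called lower over all X windows was not counted, and over autosomal windows, an unlike set, it was 16.2%.

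**Figure D5:**
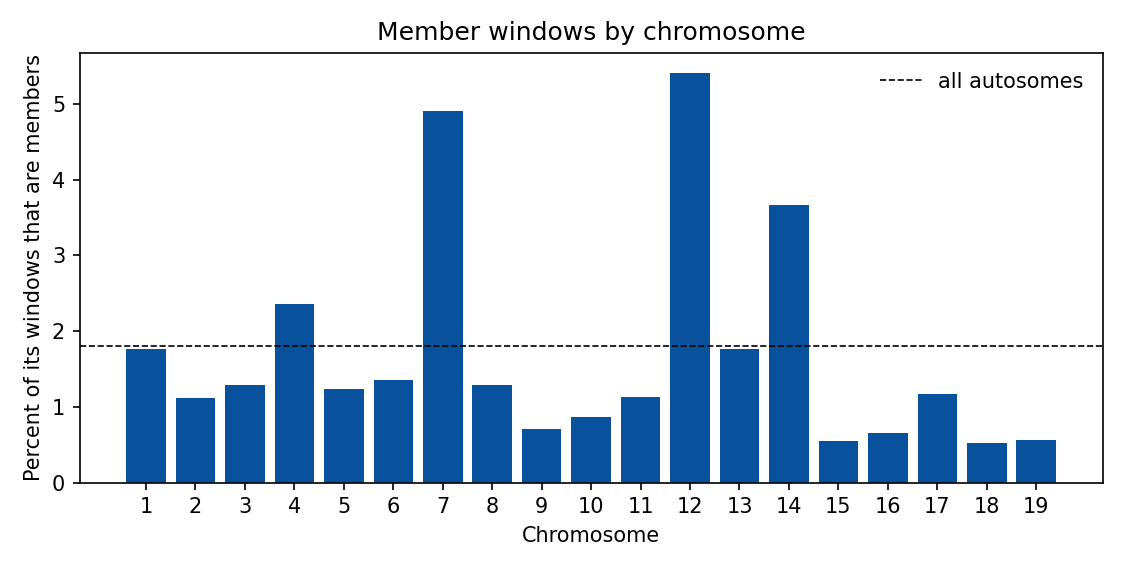
Percent of the measured windows of each autosome that are D2-depleted (bars, from 0), with the value for all autosomes, 1.8%, as a dashed line. Chromosomes 12 and 7 lie highest, at 5.4% and 4.91%, and chromosome 18 lowest, at 0.516%.

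Coding sequence was nearly absent. Of the D2-depleted windows, 27.2% overlapped an annotated gene, 14.1% a protein-coding gene and 0.454% (16 windows) a coding exon, where the shares of all autosomal windows were 49.7%, 41.5% and 19.6%. Within 1 kb of a protein-coding start site lay 1.39%, against 6.98%. Pseudogenes went the other way: 8.82% of D2-depleted windows and 4.01% of autosomal windows overlapped one. Of the 5087 windows on processed pseudogenes 217 were D2-depleted (4.27%), against 0.614% of the windows on protein-coding genes.

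Several processed pseudogenes were D2-depleted over their whole measured length. Gm5182 had 11 of 11 windows, Gm10110 10 of 10, Gm12892 9 of 9 and Gm13127 8 of 8. Over the 9 windows of Gm12892, B6 CORT+DFP mice had 944, 565, 803, 795, 861 and 949 reads and D2 CORT+DFP mice 0, 2, 3, 0, 5 and 0. Over the 11 windows of Gm5182 they had 546, 324, 450, 339, 423 and 520 against 2, 0, 1, 2, 2 and 3. The strains were far apart in every mouse at both. The printed Gm12892 window had 0 reads in all 6 D2 CORT+DFP mice. With that sum at the floor of 3 reads, it was at least 245-fold lower than in B6 (the exact 95% counting limit is 198). The fitted difference was -5.85 (SE 0.12, adjusted p = 8.44e-17 in limma). All 6 D2 values lay at the floor there (SD 0.00), so D2 added no spread to that SE and p-value.

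In the protein-coding genes with the most such windows they lay mainly in introns. Fbxw11, which encodes the substrate-binding subunit of a ubiquitin ligase, had 9 measured windows, all D2-depleted and all in 1 unbroken block of 1350 bp at chr11:32725501-32726850. The B6 CORT+DFP mice had 360 to 537 reads over that block and the D2 CORT+DFP mice 1 to 5. The longest unbroken block, 2250 bp at chr14:51382351-51384600 within Gm7247 and the noncoding Vmn2r-ps111, had 15 windows. It took 782, 435, 610, 562, 586 and 723 reads in B6 CORT+DFP mice and 0, 0, 3, 0, 3 and 0 in D2 CORT+DFP mice. No read fell there in any of the 6 D2 controls, which the rule used. In Galk2, an N-acetylgalactosamine kinase gene, 8 of 11 windows were D2-depleted, and in Vmn1r139, a vomeronasal receptor gene, 10 of 14.

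Several larger genes held a few D2-depleted windows among many measured ones. Macrod2, for a mono-ADP-ribose hydrolase, had 8 of 66 windows, Mctp1, for a C2-domain membrane protein, 8 of 45, Immp2l, for a mitochondrial inner membrane peptidase, 7 of 60, and Etl4 9 of 85, 4 of them on exons. Serpina1b, a gene of the alpha-1-antitrypsin family of protease inhibitors, had 7 of 18. Tmem267 had 8 of 70, and 64 of its 70 windows were lower in D2, against 16.2% of all autosomal windows. At Poteg and Gm45861, which overlap, the same 7 windows took 1691 reads in B6 and 2 in D2 CORT+DFP mice. The noncoding host transcript Snhg14, on chromosome 7 in the imprinted Prader-Willi region, held 23 of 181, and 7 D2-depleted windows of that region overlapped small nucleolar RNA genes, 2 of them at Snord116l8. Its windows took 23 to 57 reads per D2 CORT+DFP mouse and 653 to 1275 per B6 CORT+DFP mouse, so a few reads did align there in every D2 mouse. Copies in tandem can share reads, so the count of a single copy is uncertain.

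The 16 windows on coding exons belonged to 12 genes. Clec2g, a C-type lectin gene of the natural killer cell receptor cluster, and Gm21863 had 1 window each with 0 reads in all 6 D2 CORT+DFP mice. Gm14403 had 2 adjacent windows with 2 D2 reads in all, which can come from 1 shared fragment. The printed one had a ratio of 272 (95% counting interval 48.4 to 10805). The other coding windows had 1 to 24 reads. The highest number was in Tcp10c, and Gm9040 had 17 reads and a D2 level of 1.16 against 4.27 in B6.

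Among gene families, the share was read against the 1.8% of all autosomal windows that were D2-depleted. Around the Skint genes, which encode butyrophilin-like proteins, 21 of 36 windows within 10 kb were D2-depleted (58.3%), led by Skint6 with 8 and Skint5 with 6. Of those 36 windows 35 were lower in D2 CORT+DFP mice and none higher (limma, adjusted p under 0.05). Killer cell lectin-like receptors (Klr) had 5 of 34, 4 of them at Klra17. Androgen-binding protein genes (Scgb1b and Scgb2b) had 9 of 77, serpins 12 of 107, 7 of them at Serpina1b, and vomeronasal type 1 receptors 61 of 559. The family of interferon-inducible Ifi and Gbp genes had 3 of 40 and signal-regulatory Sirpb1 2 of 6, all on small numbers. Counting every window within 10 kb, 164 of the 559 at vomeronasal type 1 receptors were lower in D2 and 70 higher. Their median difference was -0.07. At Sirpb1 2 of 6 were lower and 3 higher, with a median of 0.49. Over all autosomal windows 16.2% were lower in D2 and 9.8% higher.

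The shares of the other families were 3.41% or less. Olfactory receptors had 57 of 1772 (3.22%), vomeronasal type 2 receptors 11 of 446 (2.47%), Trim genes 10 of 356 (2.81%), Nlrp and Naip genes 3 of 158 (1.9%) and Zfp zinc finger genes 43 of 2718 (1.58%). Cytochrome P450 genes had 2 of 404 and major histocompatibility (H2) genes 1 of 114. Major urinary protein, Ugt and Speer genes had none, of 72, 47 and 29 windows. Among genes of neurons, potassium channels had 0 of 802, glutamate receptors 1 of 453, at Grm4, cadherins and protocadherins 6 of 960, at Cdh7 and Cdh18, and synaptic adhesion genes 7 of 1080, led by Lrrc4c, a netrin-G ligand gene, with 4. GABA receptors had 6 of 176 (3.41%), all at Gabrr3, which encodes a rho subunit.

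In 500 of the D2-depleted windows (14.2%) every D2 CORT+DFP mouse had at least 1 read. The window with the highest D2 mean, chr14:15463651-15463800, 24663 bp from Lrrc3b, had 10, 5, 7, 11, 7 and 7 reads in these mice, and 31 to 63 in B6 CORT+DFP mice. The ratio was 7.1 (95% counting interval 5.2 to 9.9), and the groups did not overlap. The next, chr10:94280251-94280400 near Gm4792, had 38 summed reads in D2 and a ratio of 4.15 (95% counting interval 2.88 to 6.13). Its fitted difference was -1.93 (SE 0.19, adjusted p = 5.89e-08 in limma), the smallest of all 3527. After quantile normalization it was -0.29 and no longer passed the threshold. The windows at chr1:174292051-174292200, chr12:22155901-22156050 and chr18:58318051-58318200 had ratios of 6.27, 8.4 and 10.1. These 5 windows were picked as the highest in the same D2 CORT+DFP mice, so their ratios lean low. The intervals do not cover that choice. In the D2 controls, which the rule held under 1.0, the summed reads at the 5 windows were 15, 14, 12, 15 and 10, in the order named. In the D2 CORT+DFP mice they were 47, 38, 34, 33 and 33.

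The treatment difference was taken in B6, since D2 lay at the floor in these windows. The B6 controls also took part in the rule. In the regression used by the study, fitted to all 23 mice with strain, treatment and their product beside sex and age, 0 of the 3527 D2-depleted windows passed an adjusted p of 0.05 (limma), as did 0 of the 195677 autosomal windows, and the smallest adjusted p was 0.839. At an unadjusted p under 0.05, 53 were lower and 98 higher in CORT+DFP mice (1.5% and 2.78% of them, against 3.19% and 2.6% of autosomal windows, and 4.28% against 5.79% in either direction). Within set 2, whose B6 mice were all of 1 age, 0 passed the adjusted threshold and 80 were lower and 211 higher at an unadjusted p (2.27% and 5.98%, against 3.8% and 3.22% of autosomal windows). The split over all mice turned without 1 mouse, to 111 lower and 59 higher without B6 CORT+DFP replicate 6 (3.15% and 1.67%, against 2.48% and 2.12% of autosomal windows), and to 67 and 51 without B6 control replicate 1 (1.9% and 1.45%, against 2.16% and 1.86%). In the fit to all 23 mice, treatment differences ran from -0.76 to 0.63, with a median SE of 0.20. The spread behind its SEs and p-values also drew on the D2 mice at the floor. A fit of the B6 mice alone had 0 adjusted calls and a median SE of 0.18. At an unadjusted p under 0.05 it had 43 lower and 151 higher (1.22% and 4.28%, against 2.64% and 2.3% of autosomal windows).

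Windows at Skint6, near Scgb1b10 and in the chromosome 12 run near Gm16368 also stand in the study's list. That list holds regions with a treatment effect, a treatment-by-strain interaction or both, at an uncorrected p. It was chosen on these same mice and is no independent evidence. At chr7:32134051-32134200, 31881 bp from Scgb1b10, the B6 controls were at 4.79, 4.91, 4.49, 4.75 and 4.52 log2 RPKM and the B6 CORT+DFP mice at 3.96 to 4.35. The groups did not overlap, and the difference was -0.54 (SE 0.13, adjusted p = 0.839 in limma). At chr12:88093501-88093650 the controls were at 4.10, 4.15, 4.16, 4.28 and 4.59 and the CORT+DFP mice at 4.44 to 4.79, a difference of 0.42 (SE 0.12, adjusted p = 0.839 in limma). At the Skint6 window, chr4:112978501-112978650, the difference was -0.30 (SE 0.12, adjusted p = 0.853 in limma). None of the 3 passed the adjusted threshold, and all 12 D2 mice had 0 reads in each. The study's list used uncorrected p-values. The unadjusted p-values for treatment in B6 were 2.33e-04, 0.00231 and 0.0166 here (limma), in the order given.

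Sex was compared among the 11 B6 mice, with treatment and age in the model. At an adjusted p under 0.05, 17 D2-depleted windows were higher in males and 0 lower (0.482% higher, against 0.173% of autosomal windows higher, 0.0332% lower and 0.206% either way). At an unadjusted p, 328 were higher in males and 13 lower (9.3% and 0.369%, against 4.34% and 1.32% of autosomal windows, which are 5.66% together). The median difference, male minus female, was 0.11, against 0.04 over all autosomal windows. The window with the smallest adjusted p, singled out after its values were seen, was chr7:53293951-53294100. It lay between 3.12 and 4.08 log2 RPKM in females and between 4.07 and 4.56 in males, a difference of 0.72 (SE 0.16, adjusted p = 0.00537 in limma). The 17 windows lay on 10 chromosomes. Among the females was the B6 control with the fewest reads of all 23 mice and the lowest median level in these windows, 4.37. Leaving out each B6 mouse in turn gave 6 to 55 windows in either direction (0.17% to 1.56%), and the share of autosomal windows moved with it, from 0.125% to 0.644%. Without that control 12 were higher and 1 lower, where 342 autosomal windows were higher. Without B6 CORT+DFP replicates 1 and 2 there were 53 and 31 higher, with 915 and 615 among autosomal windows. Without B6 CORT+DFP replicates 3 and 4 there were 11 each, and without B6 control replicates 3, 4 and 5 there were 8, 7 and 7. Without B6 CORT+DFP replicate 6, a male with the highest median level (4.65), 6 were higher, with 219 among autosomal windows. The part of depth in this difference was not tested.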

How the data were processed

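Prefrontal cortex DNA of 23 mice was sheared, captured with MBD2 protein and sequenced. The authors aligned reads with STAR 2.5.0a to GRCm38, counted them in 150 bp windows with MEDIPS after extending each read to 150 bp, kept windows with CpGs and enough reads, and scaled them with edgeR 3.34.1. How reads that align to several places were treated is not given in the sources used here. Deposited by the authors were log2 RPKM values, made after adding a prior that averaged 2 reads. The count of CpGs in each window, made by the authors with MEDIPS, is deposited beside them.

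The prior was removed and reads were recovered, with 100% of values within 0.01 reads of a whole number. Intervals are exact binomial (95%) and cover counting error only, and folds against 0 reads use a floor of 3 reads summed over 6 mice. Strain was tested in the 12 CORT+DFP mice with sex and age, treatment in all 23 mice, and sex in the 11 B6 mice, with limma 3.58.1 (R 4.3.3) over all 210191 windows and Benjamini-Hochberg adjustment. Voom on the recovered reads was an alternative. The fitting script was tested on simulated data. Groups, sexes, ages and sets came from the labels. Windows were placed on GENCODE M21 genes. Other steps used Python 3.11.15, pandas 2.3.3, numpy 2.4.6, scipy 1.17.1 and matplotlib 3.10.9.

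The members, gene lists and tests were chosen with earlier results of these data known. Windows were named by rule: the 10 runs with the most members and their highest B6 window, and the 10 windows highest in B6 CORT+DFP mice. Named too were the 5 highest in D2 CORT+DFP mice, the 3 on each side of a threshold, and up to 3 genes per list. So were those on the study's list of treatment or interaction regions. The genes with the most members, those with coding members, the unbroken blocks, the printed sequences and the window leading the sex comparison were chosen after their values were seen. None of the highest B6 windows of the 10 runs, which the rule would have printed, lay wholly inside 1 exon of a transcript, so other windows were printed. The result of 1 coding window is not reported here. How often each sequence occurs in the genome was not analysed here.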

Additional observations from a re-analysis of the deposited data

Results flagged for a closer look

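Of 39 groups of 5 or 6 values examined, 7 had 1 mouse far from the others, its gap to the nearest being over 0.71 (5 mice) or 0.625 (6 mice) of the group's range. For independent, normally distributed values chance flags about 1 in 20 groups. The groups here share mice and neighbouring windows, so the 7 cannot be set against that rate. The median level of the D2-depleted windows was lowest, at 4.37 log2 RPKM, in B6 control replicate 1, the mouse with the fewest reads, and highest, at 4.65, in B6 CORT+DFP replicate 6. Among D2 mice it was 0.40 in control replicate 6 and 0.38 in CORT+DFP replicate 4, which had the most reads of their groups (18074278 and 18428398). It was -0.03 in all the others, a tie at 0 reads that made the rule flag any higher value. Among B6 CORT+DFP mice, replicate 4 stood apart at chr5:93610201-93610350 (4.58), replicate 5 at chr7:20314201-20314350 (5.11) and replicate 6 at chr12:88092301-88092450 (5.24).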

How the results depend on the processing

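With a D2 threshold of 0.5 the rule took 2281 windows. After quantile normalization it took 0, since that step gives every mouse the same lowest values, and leaving out 1 control mouse gave 3524 to 3569. Without any 1 CORT+DFP mouse all 3527 windows stayed lower in D2 (3527 to 3527), with a median fitted difference of -4.18 to -4.1. That median was -2.83 after quantile normalization, where 3523 were called, and -5.67 with voom. Over 44 named windows and 924 alternative fits the strain call was kept in 923. It was lost at chr10:94280251-94280400 after quantile normalization (-0.29). Treatment in B6 had 0 adjusted calls in every fit, and at an unadjusted p 118 to 215 without 1 mouse (3.35% to 6.1%, against 4.02% to 7.84% of autosomal windows), 291 in set 2 alone (8.25% against 7.01%) and 251 after quantile normalization (7.12% against 8.39%). Sex calls ranged without 1 mouse, an alternative chosen after seeing the data, from 6 to 55 (unadjusted 173 to 612, or 4.91% to 17.4% against 4.42% to 9.54% of autosomal windows). Protein-coding genes alone overlapped 14.1% of the windows. At most 1 read in each D2 CORT+DFP mouse was seen at 1586 windows, and 0 reads in all D2 mice at 442. The planned counts of each window's sequence in the genome were not run, since no whole genome of this build was used here. No paired analysis was possible because the replicate numbers were given in accession order and pair no mice. Depth limits the D2 values: 0 reads in 6 mice allows up to 3 reads, and folds against it are lower bounds.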

Other observations

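The 64 windows that met the rule with the strains exchanged, high in D2 controls and near 0 in B6 controls, had medians of 4.73 log2 RPKM in D2 and 0.80 in B6 CORT+DFP mice. All 64 were higher in D2 CORT+DFP mice (limma, adjusted p under 0.05), against 9.8% of autosomal windows. Their median of 8 CpGs per window stood beside 6 in the D2-depleted windows, a difference that was not tested.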
